A study of Mus musculus with 10 samples.

Results

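The 10 genes described here are named targets and partners of the transcription factor p53 and of the growth-arrest program: Cdkn1a, Gadd45a, Mdm2, Ccng1, Trp53inp1, Bax, Bbc3, Pmaip1, Trp53 itself and Cdkn1b. They were given as a list of names, and each of the 10 matched exactly 1 of the 39179 gene identifiers listed for every sample. RNA was measured by sequencing in the tibialis anterior (TA), a fast muscle at the front of the shin, in 4 mice of the control group and 6 mice of the LLC group, with 1 library per mouse. LLC is Lewis Lung Carcinoma, a mouse lung cancer cell line that grows in C57BL mice and leads to cachexia, the loss of muscle and body weight in cancer. Mice of the LLC group received LLC cells in PBS under the skin of each flank, and mice of the control group received PBS alone. The sample labels give the strain as C57BL/6J, an age of 10 weeks at injection and 23 days of tumor growth, whereas the series description gives C57BL/10 males, 8 weeks and 22 days. The labels name no transgene or deletion. The model is limited to 1 tumor line grown under the skin and to the mice still alive at collection, and the muscle was taken whole, so a change in the share of a cell type and a change in RNA per cell cannot be told apart.

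p53 is held low in unstressed cells by Mdm2, a ubiquitin ligase that marks it for degradation and is itself a p53 target, so the loop limits its own activity. When p53 is stabilized after DNA damage or other stress, it binds DNA as a tetramer and raises the transcription of genes that stop the cell cycle (Cdkn1a, Gadd45a), that feed back on p53 (Mdm2, Ccng1, Trp53inp1) and that trigger apoptosis (Bax, Bbc3, Pmaip1). In muscle fibres, which do not divide, Cdkn1a and Gadd45a are also known to increase under atrophy stimuli, and other factors than p53, such as ATF4 and FoxO proteins, can act on them. Because p53 is controlled mostly as a protein, its mRNA level does not measure its activity.

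The promoter windows of the members were read first, because p53 binds DNA elements made of 2 half-sites. Each p53 half-site is a sequence of 10 bases, and a single one is not a whole element. RefSeq promoter entries on GRCm38.p6 were found for 8 of the 10 members, and the 250 bases before the start site were cut back wherever an annotated exon was met, which left 200 to 250 bases for 7 genes. A p53 half-site was present in the first window of 4 of these 7 genes, against 7.13% of all 32851 promoter windows of 250 bases, searched on both strands. For windows cut to 200 bases that share was 5.82%. Because the genes were listed as named targets and partners of p53, the comparison is no test of these data. Cdkn1a is shown as the member with the largest difference in level and 2 half-sites, Ccng1 and Mdm2 as other targets with a half-site, and Gadd45a as the second member by size of difference, with none. The sequences run 5′ to 3′ on the strand of the gene, and capitals mark the p53 half-sites.
Cdkn1a, chr17:29090729-29090975, plus strand: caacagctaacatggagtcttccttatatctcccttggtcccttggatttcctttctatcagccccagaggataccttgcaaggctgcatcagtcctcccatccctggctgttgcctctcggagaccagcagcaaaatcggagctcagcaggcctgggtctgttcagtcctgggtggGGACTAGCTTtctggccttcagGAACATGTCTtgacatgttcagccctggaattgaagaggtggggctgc
Ccng1, chr11:40755312-40755536, minus strand: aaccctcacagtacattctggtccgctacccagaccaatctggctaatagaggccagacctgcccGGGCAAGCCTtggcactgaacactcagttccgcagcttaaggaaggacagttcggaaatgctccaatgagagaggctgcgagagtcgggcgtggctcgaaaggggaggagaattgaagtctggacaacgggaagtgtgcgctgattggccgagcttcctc
Mdm2, chr10:117710759-117711008, minus strand: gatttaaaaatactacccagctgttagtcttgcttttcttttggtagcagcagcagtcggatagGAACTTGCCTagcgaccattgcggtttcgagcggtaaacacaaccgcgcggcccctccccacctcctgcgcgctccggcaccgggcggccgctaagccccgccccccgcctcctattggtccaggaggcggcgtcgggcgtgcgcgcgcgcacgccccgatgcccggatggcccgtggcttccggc
Gadd45a, chr6:67037458-67037657, minus strand: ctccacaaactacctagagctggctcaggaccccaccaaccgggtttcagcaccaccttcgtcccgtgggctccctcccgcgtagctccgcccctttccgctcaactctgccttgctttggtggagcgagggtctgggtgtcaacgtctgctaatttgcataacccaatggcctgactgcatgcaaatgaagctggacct

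A second promoter entry of Cdkn1a was cut back to 0 bases at an annotated exon, so only the window of its first entry was searched. In that window 1 half-site lay 42 to 51 bases before the start site of the first entry. It was directly followed by a decamer, tgacatgttc, that departed from the half-site pattern at 1 base. Ccng1 also had such a pair, with a half-site 176 to 185 bases before its start and a neighbour with 1 mismatch. Pairs of this kind were found in 25 of the 32851 windows, or 0.0761%. The half-site of Bax lay 192 to 201 bases and that of Mdm2 177 to 186 bases before the start, and neither had a neighbour of that kind. No half-site was found in the windows of Gadd45a, Cdkn1b and Bbc3, which says only that these letters are not in those windows. The forkhead core TGTTTAC was found in the windows of Mdm2 and Bbc3 and in 3.17% of all windows of 250 bases. The C/EBP-ATF element TGATGCAA was found in none of the member windows. No half-site overlapped one of the other motifs searched.

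Before differences are described, the levels set the scale. Per length, as RPKM (reads per kilobase of exon, scaled to library size), Ccng1 was the most abundant member in control muscle, with 165 ± 13.7 (SD, n = 4). Mdm2 followed with 9.17 ± 0.456, Cdkn1b with 5.68 ± 0.58 and Bax with 4.89 ± 0.66. Gadd45a stood at 4.38 ± 0.343, Trp53 at 3.10 ± 0.28, Cdkn1a at 2.71 ± 0.778, Trp53inp1 at 1.60 ± 0.29 and Bbc3 at 0.241 ± 0.0698. The control ranges of Cdkn1b and Bax, of Bax and Gadd45a, of Trp53 and Cdkn1a, and of Cdkn1a and Trp53inp1 overlapped, so the order within these pairs is not set. In the LLC group the ranges of Cdkn1a, 2.86 to 69.4 RPKM, and Gadd45a, 7.49 to 76.6 RPKM, were the widest apart from that of Ccng1.

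Total counts ranged from 16693209 to 21303084 per library. Mitochondrially encoded genes took 22.0% of the counts of LLC 1, the lowest share, with LLC 5 close to it at 22.9%. That share was 28.4 to 30.7% in the control group and up to 27.9% in the LLC group. In LLC 1 the muscle fibre markers (Acta1, Ckm, Myh4 and 7 others) summed to 78700 CPM (counts scaled to a common library total by TMM factors). This sum was the lowest of the LLC group and below the 117793 to 125462 CPM of the control libraries. The comparisons of the members are therefore given with and without LLC 1, and the part of that library's makeup in the results was not tested. The labelled tissue matched its markers, since the fibre genes made up a large share of counts in all 10 libraries.

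No member passed the threshold of the main test, edgeR's quasi-likelihood test with a 1.5-fold minimum and p-values adjusted over all tested genes to a limit of 0.05, under which 0 of the 9 tested members were called against 5.63% of all 12690 genes tested. At an unadjusted p under 0.05 there were 4 of 9 members (Cdkn1a, Gadd45a, Bax and Bbc3), against 27.4% of all genes. DESeq2 called 2 of the 9, Cdkn1a and Gadd45a, both higher in the LLC group, against 8.29% of all genes. The fit of limma voom with sample quality weights called the same 2 members, against 7.86% of all genes. Without LLC 1, edgeR called the same 2 members, against 7.65% of all genes. The median log2 fold change of the 9 members was 0.39, beside 0.002 over all tested genes, and without LLC 1 it was 0.26 beside 0.01. Of the 9 estimates 8 were positive, as were 6382 of the 12690 over all tested genes.

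**Figure D1:**
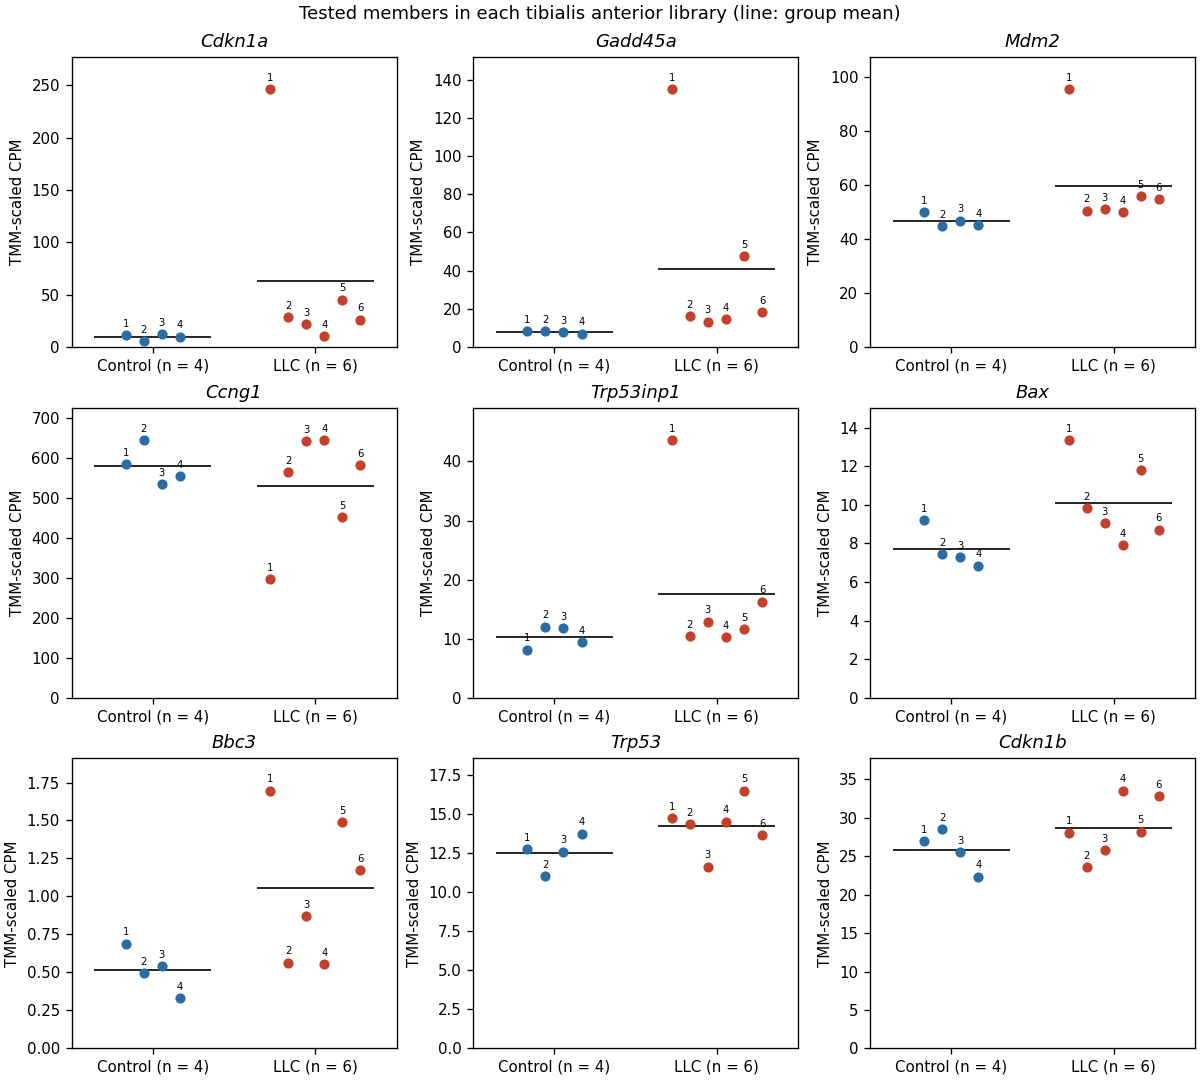
Each panel plots the TMM-scaled CPM of 1 tested member on a linear axis from 0, with 1 point per library (numbered by replicate, blue for the control group and red for the LLC group) and a line at each group mean. LLC 1 is the highest point for Cdkn1a at 246 CPM, for Gadd45a at 135 CPM, and for Mdm2, Trp53inp1, Bax and Bbc3, while it is the lowest for Ccng1 at 296 CPM.

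Cdkn1a (chromosome 17, 29090976 to 29100727, plus strand) encodes p21, the inhibitor of cyclin-dependent kinases that carries much of the p53 growth arrest. Its values in Control 1 to 4 were 11.0, 5.68, 12.0 and 9.81 TMM-scaled CPM. In LLC 1 to 6 they were 246, 28.4, 21.7, 10.2, 45.2 and 26.1 CPM. Thus 5 of the 6 LLC libraries lay above every control library, and LLC 4 lay inside the control range. The LLC mean was 63.0 ± 90.6 CPM (SD, n = 6) against 9.61 ± 2.77 (n = 4), a 6.55-fold ratio of means that fell to 2.74-fold without LLC 1. edgeR gave a log2 fold change of 2.71 ± 0.84 (SE) with an adjusted p of 0.0758. DESeq2 gave 2.73 ± 0.84 with an adjusted p of 0.0155, and voom with quality weights gave 1.25 ± 0.34 with an adjusted p of 0.0214. With LLC 1 left out, edgeR gave 1.47 ± 0.35 with an adjusted p of 0.0174, and with LLC 4 left out 2.94 with an adjusted p of 0.0429. The other leave-one-out fits of edgeR did not call it. Their adjusted p was 0.168 to 0.179 when 1 control library was left out. Without LLC 2, LLC 3, LLC 5 or LLC 6 it was 0.0681, 0.0672, 0.115 and 0.0963. The direction was the same in each of these fits, while the size of the estimate depended on LLC 1.

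Gadd45a (chromosome 6, 67035096 to 67037457, minus strand), a small stress protein that binds PCNA and p21 and is known as a driver of atrophy programs in muscle, was above the control range in every LLC library. Control 1 to 4 held 8.16, 8.20, 7.62 and 6.90 CPM, and LLC 1 to 6 held 135, 16.3, 13.2, 14.4, 47.7 and 18.3 CPM. It was the only tested member for which all 6 LLC values lay above all 4 control values, a pattern seen in 6.4% of all tested genes. No member had all 6 LLC values below the control values, a pattern of 9.57% of the genes. The means were 40.8 ± 47.9 CPM (n = 6) and 7.72 ± 0.604 CPM (n = 4), a ratio of 5.29 that became 2.85 without LLC 1. The edgeR log2 fold change was 2.40 ± 0.69 with an adjusted p of 0.0607. It was 1.52 ± 0.35 with an adjusted p of 0.0157 without LLC 1, and edgeR also called the gene without LLC 2, LLC 3 or LLC 4 (adjusted p of 0.0487, 0.0464 and 0.0436). When 1 control library was left out, edgeR did not call it (adjusted p of 0.137 to 0.158). Nor was it called without LLC 5 or LLC 6 (adjusted edgeR p of 0.110 and 0.0743). DESeq2 gave an adjusted p of 0.0107 and voom 0.0064.

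Cdkn1b (chromosome 6, 134920401 to 134925513, plus strand) encodes p27, a relative of p21 that is not a classical p53 target and is regulated largely by translation and degradation. It ranged from 22.3 to 28.5 CPM in the control group and from 23.6 to 33.6 CPM in the LLC group, with a median of 28.1 CPM. Its edgeR log2 fold change was 0.15 ± 0.12 with an adjusted p of 0.414, and 0.16 ± 0.11 with an adjusted p of 0.349 without LLC 1, and the groups overlapped. The coefficient of variation between LLC libraries was 144% for Cdkn1a, 117% for Gadd45a, 74.1% for Trp53inp1, 45.1% for Bbc3 and 13.6% for Cdkn1b. Without LLC 1 it was 48.2%, 66.0%, 19.9%, 43.3% and 15.1%, so most of the spread of Cdkn1a and Trp53inp1 came with that library. In the control group it was 28.8%, 7.83%, 18.2%, 28.9% and 10.2%.

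**Figure D2:**
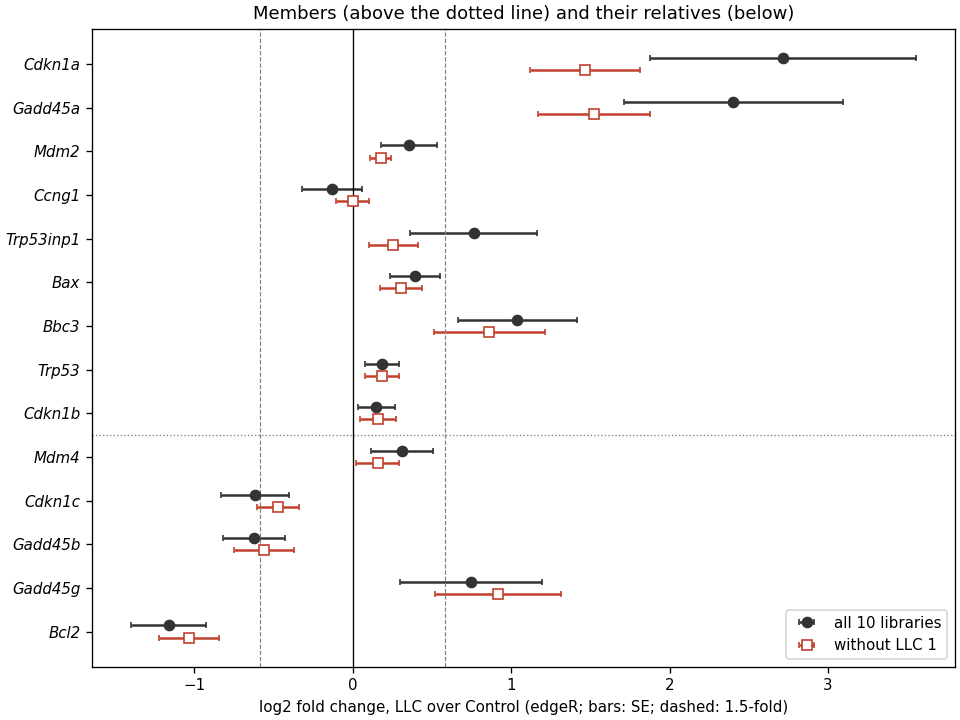
The horizontal axis is the edgeR log2 fold change of the LLC group over the control group with its standard error, with filled circles for all 10 libraries and open squares for the fit without LLC 1, and dashed lines at 1.5-fold. Cdkn1a moves from 2.71 to 1.47 and Gadd45a from 2.40 to 1.52 when LLC 1 is left out, while Trp53 and Cdkn1b stay near 0.18 and 0.15.

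Among the p53 core genes, Trp53 mRNA (chromosome 11, 69580359 to 69591873, plus strand) was 12.8, 11.0, 12.6 and 13.7 CPM in the control libraries. In the LLC group it ran from 11.6 to 16.5 CPM with a median of 14.4, and the groups overlapped. Its log2 fold change was 0.18 ± 0.11 with an adjusted edgeR p of 0.274, and 0.18 ± 0.11 with an adjusted p of 0.263 without LLC 1. Mdm2 (chromosome 10, 117688875 to 117710758, minus strand), the ligase that restrains p53, held 49.8, 44.7, 46.8 and 45.1 CPM in the control libraries. LLC 1 reached 95.5 CPM, and the other LLC libraries lay between 49.8 and 56.0 CPM, just above or at the top of the control range. The log2 fold change of Mdm2 was 0.35 ± 0.18 with an adjusted edgeR p of 0.214, and 0.18 ± 0.07 with an adjusted p of 0.0946 without LLC 1. Mdm4, its partner in restraining p53, ran from 11.5 to 15.3 CPM in the control group and had a median of 16.5 CPM in the LLC group, with a log2 fold change of 0.31 ± 0.20 and an adjusted edgeR p of 0.310, and 0.16 ± 0.14 with an adjusted p of 0.453 without LLC 1.

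Of the feedback genes, Ccng1 (chromosome 11, 40748552 to 40755311, minus strand), which encodes cyclin G1 and brings a phosphatase to Mdm2, held 584, 645, 534 and 554 CPM in the control libraries. LLC 1 held 296 CPM and LLC 5 held 452 CPM, both below the control range, and the highest LLC library reached 645 CPM. Its log2 fold change was −0.13 ± 0.19 with an adjusted edgeR p of 0.678, and 0.000692 ± 0.104 without LLC 1, so no direction can be given. Trp53inp1 (chromosome 4, 11156431 to 11174379, plus strand), a nuclear stress protein that acts with p53 and in autophagy, ran from 8.16 to 12.0 CPM in the control group. LLC 1 held 43.7 CPM, and the other LLC libraries lay between 10.3 and 16.3 CPM. The log2 fold change was 0.76 ± 0.40 with an adjusted edgeR p of 0.232, and 0.26 ± 0.16 with an adjusted p of 0.277 without LLC 1.

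Of the apoptosis genes, Bax (chromosome 7, 45461697 to 45466898, minus strand), which opens the outer mitochondrial membrane, held 9.22, 7.46, 7.30 and 6.85 CPM in the control libraries and 7.91 to 13.4 CPM, with a median of 9.43, in the LLC group. Its log2 fold change was 0.39 ± 0.16 with an adjusted edgeR p of 0.143 (0.30 ± 0.13 and 0.135 without LLC 1), and 3 of the 6 LLC libraries lay above all control libraries. Bbc3 (chromosome 7, 16308393 to 16318205, plus strand), the BH3-only protein PUMA, had between 6 and 33 counts per library, so its values are the least precise of the tested members. It ran from 0.329 to 0.689 CPM in the control group and from 0.554 to 1.70 CPM in the LLC group, with a log2 fold change of 1.04 ± 0.37 and an adjusted edgeR p of 0.11. Without LLC 1 these were 0.86 ± 0.35 and 0.117. Pmaip1 (chromosome 18, 66458533 to 66465565, plus strand), the BH3-only protein NOXA, had 0, 0, 1 and 1 counts in the control libraries and 0, 1, 0, 1, 3 and 0 counts in the LLC libraries. It did not pass the filter on low counts and no library exceeded 3 counts, the level taken as detected, which corresponds to 0.148 to 0.174 CPM, so no fold is given.

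The 6 LLC libraries differed from each other in how far the members departed from the control mean. LLC 1 was the highest LLC library for 6 of the 9 tested members, or 66.7%, beside 32.8% of all tested genes. Its median fold over the control mean was 2.05, with 25.6-fold for Cdkn1a, 17.5-fold for Gadd45a, 4.23-fold for Trp53inp1 and 0.511-fold for Ccng1. LLC 5 came next, with 6.18-fold for Gadd45a, 4.70-fold for Cdkn1a and 2.90-fold for Bbc3. LLC 4 was closest to the control group, with its largest departure, 1.87-fold, for Gadd45a and 1.06-fold for Cdkn1a. Mitochondrially encoded genes took 22.9% of counts in LLC 5, the next lowest share after LLC 1, and 27.0% in LLC 4.

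**Figure D3:**
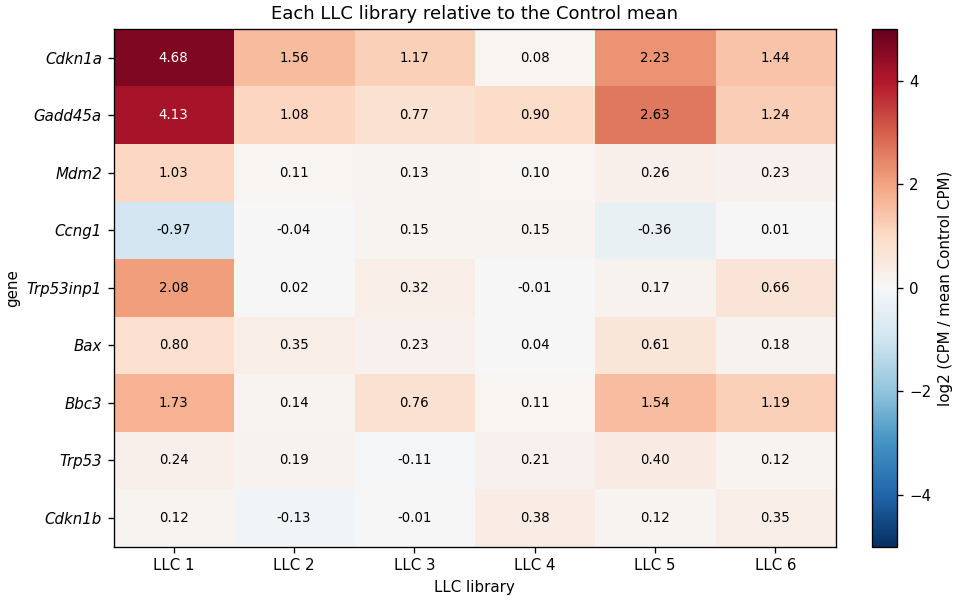
Rows are the 9 tested members and columns the 6 LLC libraries, and each cell gives the log2 of the library's CPM over the mean CPM of the 4 control libraries (red higher, blue lower). Cdkn1a and Gadd45a are red in LLC 1 and LLC 5, Cdkn1a is near 0 in LLC 4, and Ccng1 is blue in LLC 1 and LLC 5.

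Within the LLC group, Cdkn1a and Gadd45a went together across libraries. Over the 6 LLC libraries, Pearson's r of log2 CPM was 0.938 (exact permutation p = 0.0111, adjusted over 4 relations 0.0222) and Spearman's rho was 0.886 (exact permutation p = 0.0333, adjusted 0.117). Without LLC 1 and LLC 4, the libraries farthest from the median of Cdkn1a, r was 0.973. Cdkn1a and Mdm2 had an r of 0.940 (exact permutation p = 0.0056, adjusted 0.0222) and a rho of 0.829 (exact permutation p = 0.0583, adjusted 0.117), with an r of 0.690 without the same libraries. The relation of Cdkn1a with Trp53inp1 (r of 0.887, exact permutation p = 0.0583, adjusted 0.0736, and rho of 0.543, exact permutation p = 0.297) rested on LLC 1 and LLC 4, since r was −0.360 without them. Gadd45a and Trp53inp1 had an r of 0.822 (exact permutation p = 0.0736) and a rho of 0.543 (exact permutation p = 0.297), and r was 0.475 without LLC 1 and LLC 5. These libraries also share their depth and composition, whose part in the relations was not tested.

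Ratios of related genes within a library do not depend on how libraries are scaled, and they were used to compare members with each other. The log2 ratio of Cdkn1a to Cdkn1b counts was −1.29, −2.32, −1.10 and −1.19 in the control libraries. In the LLC group it ran from −1.72 in LLC 4 to 3.13 in LLC 1, with a median of 0.01. The difference of the means was 1.77 (exact permutation test, two-sided p = 0.0381, adjusted over 5 ratios 0.0476), higher in 5 of 6 LLC libraries than in any control library, and 1.20 without LLC 1 (adjusted p = 0.0794 in the same exact test). Cdkn1a to Mdm2 differed by 1.60 (exact permutation p = 0.0381, adjusted 0.0476), again higher in 5 of 6 LLC libraries, and by 1.18 without LLC 1 (adjusted exact p = 0.0794).

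Gadd45a to Gadd45b, members of the same family, stood at −1.44, −1.12, −1.23 and −0.84 in the control libraries and between 0.07 and 3.88 in the LLC libraries. The difference was 2.42 (exact permutation p = 0.0095, the smallest p that 4 against 6 allows, adjusted 0.0238), in the same direction in 6 of 6 LLC libraries, and 1.90 without LLC 1. Since Gadd45a alone already lay above every control library in all 6 LLC libraries, this p is not separate support. Gadd45b itself held 17.6 ± 4.04 CPM (SD, n = 4) in the control group and 11.4 ± 2.81 CPM (n = 6) in the LLC group, with a log2 fold change of −0.62 ± 0.20 and an adjusted p of 0.0792 in edgeR, 0.0414 in DESeq2 and 0.0357 with voom. Gadd45g ran from 16.6 to 44.4 CPM in the control group and from 20.3 to 111 CPM in the LLC group, with a log2 fold change of 0.75 ± 0.45 and an adjusted edgeR p of 0.287. Without LLC 5, its highest library, the estimate was 0.32 with an adjusted p of 0.566. Mdm2 to Mdm4 differed by 0.04 (exact permutation p = 0.800).

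Bax to Bcl2 differed by 1.58 (exact permutation p = 0.0095, adjusted 0.0238), with −0.61, −0.32, −0.64 and −0.43 in the control libraries and 0.26 to 2.26 in the LLC libraries, and by 1.35 without LLC 1. Bcl2, the founding anti-apoptotic member of its family, fell in the LLC group: it held 14.1, 9.33, 11.4 and 9.26 CPM in the control libraries and 2.78 to 6.60 CPM, with a median of 5.03, in the LLC group, all 6 below every control library. Its log2 fold change was −1.16 ± 0.24 with an adjusted edgeR p of 0.0135, and −1.03 with an adjusted p of 0.0048 without LLC 1. The call was lost without Control 1, with an adjusted p of 0.0563. Among all tested genes, 9.57% had all 6 LLC values below all 4 control values. Since Bcl2 alone already separated the groups, the p of the Bax to Bcl2 ratio is not separate support.

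**Figure D4:**
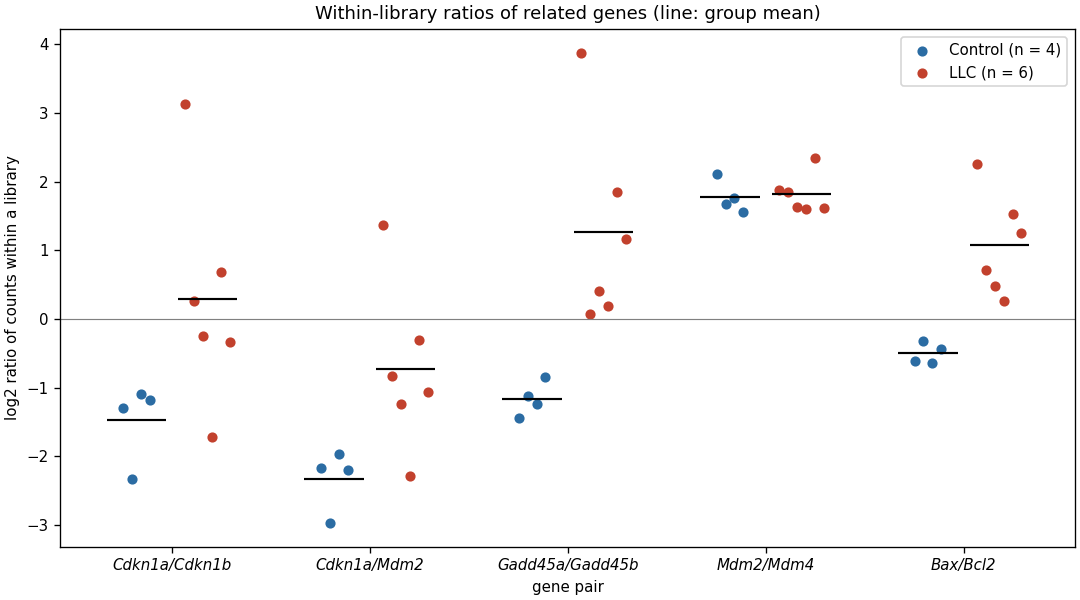
The vertical axis is the log2 ratio of the counts of 2 genes in the same library, with 1 point per library (blue for the 4 control, red for the 6 LLC libraries) and a line at the group mean. The groups do not overlap for Gadd45a/Gadd45b and Bax/Bcl2, LLC 4 lies among the control libraries for Cdkn1a/Cdkn1b and Cdkn1a/Mdm2, and Mdm2/Mdm4 differs by 0.04.

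The wider pathway was read from lists of genes. Of 30 other p53 targets, 26 were tested and 4 passed the threshold in edgeR, 2 higher and 2 lower, where 5.63% of all tested genes did. The median log2 fold change of the list was 0.11, beside 0.002 over all tested genes, and without LLC 1 it was 0.02 beside 0.01. Eda2r, a receptor of the TNF receptor family, rose, with 16.7 to 21.2 CPM in the control group and 26.3 to 168 CPM in the LLC group (log2 fold change of 1.83 ± 0.49, adjusted edgeR p of 0.0452). Tnfrsf10b, the TRAIL death receptor, rose, with 1.10 to 1.64 CPM against 2.26 to 3.09 CPM (log2 fold change of 1.00 ± 0.17, adjusted edgeR p of 0.0052). Sulf2, an extracellular sulfatase that trims heparan sulfate, fell by 1.05 ± 0.23 on the log2 scale (adjusted edgeR p of 0.0189). Ephx1, an epoxide hydrolase, fell by 0.66 ± 0.12 on that scale (adjusted edgeR p of 0.0081). The number called ranged from 2 without Control 2, Control 3 or Control 4 to 5 without LLC 1, where Sesn1 was added. Eda2r is the least stable of these calls, since it was lost without any 1 of the 4 control libraries (adjusted p of 0.106 to 0.129) and without LLC 5 or LLC 6 (adjusted p of 0.0909 and 0.0780). Sulf2 was lost without Control 3 or Control 4 (adjusted p of 0.0707 and 0.0564), and Ephx1 without Control 2, where its change fell under 1.5-fold.

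Sesn1 and Ddit4, stress genes that restrain mTORC1 and are named here after their values were seen, did not pass the threshold of the main edgeR test. Voom called Sesn1 (log2 fold change of 0.67, adjusted p of 0.0368), and DESeq2 did not (adjusted p of 0.0549). Ddit4 was called by neither (adjusted p of 0.235 with voom and 0.0577 with DESeq2). Sesn1 ran from 13.1 to 15.5 CPM in the control group and from 17.1 to 153 CPM in the LLC group (log2 fold change of 1.76 ± 0.61, adjusted edgeR p of 0.102), and without LLC 1 its log2 fold change was 0.92 with an adjusted p of 0.0353. Ddit4 ran from 3.44 to 15.7 CPM and from 5.09 to 133 CPM (log2 fold change of 2.35 ± 0.86, adjusted edgeR p of 0.115), and without LLC 1 its log2 fold change was 1.70 with an adjusted p of 0.120. LLC 1 was the highest LLC library for both, and for 18 of the 26 tested genes of the list, or 69.2%, beside 32.8% of all tested genes.

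Of 19 regulators of p53, 16 were tested and 1 passed the threshold, a share near the 5.63% of all tested genes. Chek2, the checkpoint kinase that phosphorylates p53 after DNA breaks, fell by 1.48 ± 0.32 on the log2 scale (adjusted edgeR p of 0.0172), with 2.57 to 4.13 CPM in the control group and 0.309 to 1.74 CPM in the LLC group. That call was lost without Control 1 or Control 3 (adjusted p of 0.0705 and 0.0547). Trp63, a homologue of p53 and also named after its values were seen, ran from 4.44 to 6.99 CPM in the control group and from 8.11 to 35.7 CPM in the LLC group, with no overlap (log2 fold change of 1.53 ± 0.43, adjusted p of 0.0560 in edgeR, 0.0036 in DESeq2 and 0.0282 in edgeR without LLC 1). Among the 16 tested regulators, 3 had all 6 LLC values above all 4 control values, Trp63 included, beside 6.4% of all tested genes. The reverse held for 1 regulator, beside 9.57% of all tested genes. Trp73, Chek1 and Cdkn2a did not pass the filter on low counts.

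Of 5 further inhibitors of cyclin-dependent kinases, 4 were tested and 0 were called by edgeR, DESeq2 or voom, with 1 at an unadjusted p under 0.05, near the 27.4% of all tested genes, and all 4 estimates negative. That one was Cdkn1c (p57), with 6.96 to 10.9 CPM in the control group, 3.09 to 7.62 CPM in the LLC group and a log2 fold change of −0.62 ± 0.22 (adjusted edgeR p of 0.104). Of 25 cyclins, kinases, RB family genes and replication genes, 16 were tested and 0 were called by edgeR, DESeq2 or voom, where edgeR called 5.63% of all tested genes. An unadjusted p under 0.05 was found for 4 of the 16, near the 27.4% of all tested genes. Without LLC 1, and also without LLC 4, 1 gene was called lower, which without LLC 1 was Ccnd1 (cyclin D1, also named after its values were seen), at 1.95 to 4.66 CPM in the control group and 0.309 to 2.82 CPM in the LLC group. The 9 genes of this list under the filter included Mki67, Top2a, Cdk1 and Ccnb1, which mark dividing cells. Of 14 other genes of the BCL2 family, 11 were tested and Bcl2 was the 1 called, beside 5.63% of all tested genes. Their estimates did not share a direction, with 7 positive and 4 negative. Mcl1, also named after its values were seen, ran from 104 to 126 CPM in the control group and from 127 to 194 CPM in the LLC group. Such a lack of overlap upwards was seen in 6.4% of all tested genes. The log2 fold change of Mcl1 was 0.36 ± 0.13 (adjusted edgeR p of 0.108).

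**Figure D5:**
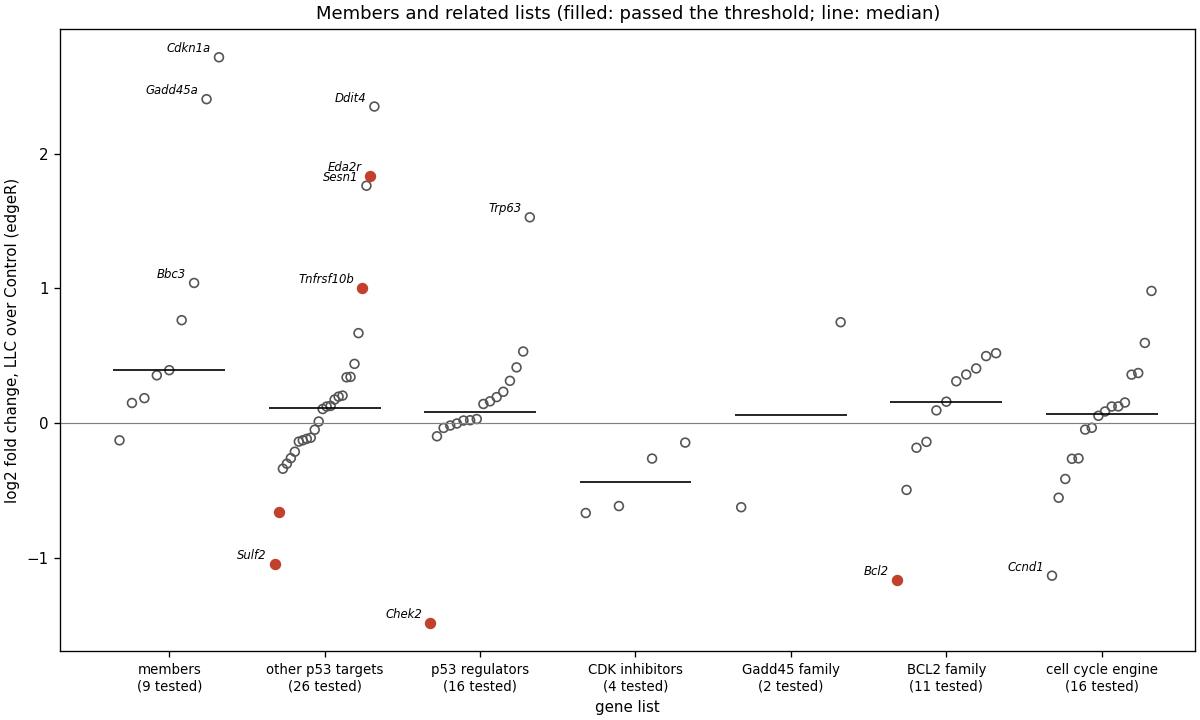
Each point is the edgeR log2 fold change of 1 tested gene, LLC group over control group, sorted within its list, filled where it passed the threshold, with a line at the median of the list. The members have a median of 0.39 and no filled point, the other p53 targets have 2 filled points above and 2 below 0, and genes at or beyond 1 in size are named.

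Markers of other cell types moved with the groups, and their part in the member results was not tested. The summed level of 10 neutrophil markers was 0.953 to 3.01 CPM in the control group and 35.0 to 75.6 CPM in the LLC group, with 9 genes called higher by edgeR. The sum of 8 markers of fibro-adipogenic progenitors was 273 to 348 CPM and 103 to 131 CPM, with 7 genes called lower and 1 higher. Erythroid genes summed to 58.8 to 83.4 CPM and 88.7 to 144 CPM (3 of 5 called higher), and Schwann cell genes to 43.4 to 48.8 CPM and 23.5 to 32.4 CPM (3 of 6 called lower). Satellite cell markers summed to 48.2 to 57.2 CPM and 39.5 to 64.3 CPM (3 of 8 called lower), with LLC 1 the highest. Macrophage (13.0 to 17.6 and 10.7 to 13.8 CPM), endothelial (286 to 369 and 288 to 326 CPM) and adipocyte markers (146 to 179 and 139 to 200 CPM) had at most 1 gene called in either direction. Lymphocyte markers summed to 0.642 to 0.794 and 0.335 to 0.756 CPM. Of these 8 genes 0 passed the filter on low counts, so none could be called. In LLC 1, the neutrophil sum was 40.9 CPM, inside the range of the other LLC libraries.

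The genes whose pattern over the 10 libraries was most like that of Cdkn1a, by Pearson's r of log2 CPM among 10282 tested genes with an average log2 CPM of at least 1, were Agpat3 (an acyltransferase, r of 0.991), Bysl (a ribosome assembly factor, 0.991), Fkbp5 (a co-chaperone of steroid receptors that glucocorticoids raise, 0.988), Tmem248 (0.985) and Cd82 (a tetraspanin, 0.984). Fkbp5 had a log2 fold change of 1.79 ± 0.61 (adjusted edgeR p of 0.0975), with a control mean of 25.8 CPM and 29.8 to 293 CPM in the LLC group. Gadd45a ranked 198 by this measure, with an r of 0.945, and Cdkn1a ranked 533 among the genes most like Gadd45a. The genes most like Gadd45a were Abcf1 (0.994) and Eif2s2 (0.994), which act in translation initiation, Sart1 (a splicing factor, 0.993), Oser1 (0.993) and Mphosph10 (a ribosomal RNA processing factor, 0.992). LLC 1 was the highest LLC library for all 10 of these genes, and none of them passed the edgeR threshold. These values describe likeness over 10 libraries that share LLC 1.

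The counts of some members and relatives could hold reads of a neighbour. Of the relatives, exons of Bcl2 share 558 bases with the antisense gene D630008O14Rik, and exons of Cdkn1c share 625 bases with the antisense gene Gm44732. Exons of Cdkn1a share 273 bases with the antisense gene AC167363.2, exons of Gadd45a share 337 bases with the antisense gene E230016M11Rik, and exons of Bax share 192 bases with Gm45808 on the same strand. The kit keeps strand, but the strand setting of the deposited counts is not stated beyond the counter's default.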

How the data were processed

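Per the labels and the study's methods, total RNA of TA muscle was extracted with TRIzol, strand-keeping libraries were sequenced from both ends, and the authors mapped reads to mm10 with TopHat2 and counted them with HTSeq at default settings. The deposited values are raw counts per gene, not normalized, for 4 control and 6 LLC libraries. They are listed by Ensembl identifier, whereas the methods name RefSeq genes, so the annotation release is not given in the sources used here. Of 39179 identifiers, 37607 were found in GENCODE M21 on GRCm38, the same assembly as mm10, which gave symbols, coordinates and exonic lengths.

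Genes were filtered with filterByExpr (count minimum of 10), which kept 12690, and scaled by TMM. The groups were compared with edgeR 4.0.16 (R 4.3.3, quasi-likelihood test, group as the only term), called at a limit of 0.05 on the p-value adjusted over all tested genes (Benjamini-Hochberg) and at least 1.5-fold. The alternatives were the Wald test of DESeq2 (1.42.0 here, the authors having used another release), limma 3.58.1 voom with sample quality weights, other scalings, no filter, a replicate block and leaving out each library. Log2 CPM used a prior count of 2, and ratios within a library added 0.5 to each count. Ratios and relations were tested by exact permutation over samples, with 210 splits for the ratios. Replicates are separate mice, and the chi-square of counts per degree of freedom was 3.90 to 8.67 between control libraries and 8.37 to 195 between LLC libraries, so each was counted once. A depth of 16693209 to 21303084 counts makes 3 counts equal to 0.148 to 0.174 CPM, which covers counting error only.

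The members and lists were chosen with earlier results of these data known. Named genes are all members, the relatives Mdm4, Cdkn1c, Gadd45b, Gadd45g and Bcl2, up to 5 called genes per pathway list by size of change, and the 5 genes nearest in pattern to Cdkn1a and to Gadd45a. Sesn1, Ddit4, Trp63, Ccnd1 and Mcl1 fall outside that rule and were named after their values were seen. Promoter windows came from RefSeq (GRCm38.p6).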

Additional observations from a re-analysis of the deposited data

Results flagged for a closer look

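Groups of samples were examined for a single distant value, by the gap to the nearest library as a share of the whole range of the group. With a limit of 0.625 for 6 libraries and 0.829 for 4, 7 of 38 groups had one. Gene values entered as CPM and not as log2 CPM, and a high library stands farther out on that scale. The 7 are therefore not set against an expected number. LLC 1 was the distant library in 5 of the 7. It lay far above the other LLC libraries for Cdkn1a (gap share of 0.852, at 246 CPM), Gadd45a (0.717, at 135 CPM), Mdm2 (0.866, at 95.5 CPM) and Trp53inp1 (0.821, at 43.7 CPM), and far below them for Cdkn1c (0.647, at 3.09 CPM). LLC 5 was distant for Gadd45g (0.637, at 111 CPM). In the control group, Control 2 was distant in the log2 ratio of Cdkn1a to Cdkn1b (0.841, at −2.32). The measures share libraries and are not independent of each other.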

How the results depend on the processing

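The number of members called was 0 in edgeR, 1 with no filter on low counts, 2 with DESeq2, 2 with voom and 0 to 2 when 1 library was left out. The number called among the regulators of p53 was 1, and 2 with no filter, DESeq2 or voom, and ranged from 0 to 2 with 1 library left out. In the Gadd45 family it was 0, and 1 with DESeq2 or voom, and ranged from 0 to 1. Among the other p53 targets 4 were called in edgeR, 4 with DESeq2 and 5 with voom. Leaving out 1 library gave 2 to 5 other p53 targets, 0 to 1 genes of the BCL2 family and 0 to 1 of the cell cycle list. Over all genes tested, the share called was 5.63% in edgeR, 8.29% with DESeq2, 7.86% with voom and 7.65% without LLC 1. For no filter and for the other libraries left out, that share is not given here. Changes in the number called in those fits are therefore not a result about the listed genes. With 1 library left out, the differences in Cdkn1a to Cdkn1b (1.20 to 2.17) and in Cdkn1a to Mdm2 (1.18 to 1.91) kept their sign but stayed at an adjusted p of 0.05 or less in only 1 of 10 runs, that without LLC 4. Those in Gadd45a to Gadd45b (1.90 to 2.66) and Bax to Bcl2 (1.35 to 1.75) stayed there in 6 of 10 runs. They were lost without any 1 control library, with an adjusted p of 0.0595 in the exact test each time. The LLC ratios still lay above every control ratio in those runs, but fewer libraries leave fewer splits, which raises the smallest possible p. That loss therefore does not measure how stable these differences are. Mdm2 to Mdm4 ranged from −0.0635 to 0.152 and turned negative without Control 4 (−0.032) or LLC 5 (−0.0635). The log2 fold change of Ccng1 turned positive with voom (0.0346) and without LLC 1 (0.000692), and ranged from −0.192 to 0.000692 with 1 library left out. Beyond the limit of the exact test given above, the cause of these changes was not tested. Other scalings shifted the median of all genes by at most 0.034 in size on the log2 scale.

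The replicate numbers name different mice, and deviations of same-numbered libraries correlated at −0.029, 0.009, −0.081 and 0.126, so they share only a number. With the number as a replicate block, 0 members, 0 other p53 targets, 0 regulators of p53 and 0 genes of the BCL2 family were called. LLC 5 and LLC 6 have no control library of the same number, so they add nothing to that contrast. The share of all tested genes called under the block is not given here, so these counts are not a result about the members. Bbc3, at 6 to 33 counts, and Pmaip1, at 0 to 3, are limited by depth.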
